A study of Mus musculus with 24 samples.

Results

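The insulin-like growth factor (IGF) system of healing skin was followed through 9 genes in wounds of diabetic mice. They were the ligands Igf1 and Igf2, the receptor Igf1r, and the binding proteins Igfbp2, Igfbp3, Igfbp4, Igfbp5, Igfbp6 and Igfbp7. The genes were chosen by symbol, and all 9 were found among the 54232 mouse genes of the count tables and passed the filter on low counts, which left 18978 genes. IGF1 and IGF2 are small secreted proteins that signal growth and survival through the tyrosine kinase receptor IGF1R, which acts on the PI3K and AKT route. Most of the ligand outside cells is held by IGF binding proteins, which lengthen its life, keep it from the receptor or release it when proteases cut them. In skin the mesenchymal cells and macrophages are known sources of IGF1, and keratinocytes are known to answer it by dividing and migrating.

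RNA was sequenced from dorsal skin wounds of male C57BLKS/J mice homozygous for the db mutation of the leptin receptor (db/db), an obese model of type 2 diabetes. A punch of 6 mm was taken at 16 weeks of age, an alginate bandage was applied at once and renewed on day 3, and the tissue was collected on day 10, at 17.5 weeks. The bandage was a control bandage (Ctrl, 6 mice) or held medium conditioned by primary macrophages of the M0 (CM0, 4 mice), M1 (CM1, 4 mice), M2a (CMA, 5 mice) or M2c (CMC, 5 mice) type. The question was whether such media alter the healing wound. All groups, the controls included, were db/db and carried alginate, and neither wounds of non-diabetic mice nor unwounded skin were analysed here. Libraries are numbered within their group, and the number pairs nothing between groups.

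The 24 libraries held 7267879 to 11985292 counts. Levels are CPM, counts relative to a library total scaled by the trimmed mean of M-values (TMM), and each ± is an SD over libraries. Skin markers were high in all 24 libraries, with 20600 to 40300 CPM for the collagen gene Col1a1 and 722 to 1800 CPM for the basal keratin gene Krt5. For each cell type a marker score averaged log2 CPM over its tested marker genes. For a check, 3 libraries that each had the highest value of a score were set apart. Ctrl 3 had the highest hair shaft score (9.71, lowest -1 in Ctrl 6), Ctrl 4 the highest skeletal muscle score (9.83) and CM1 3 the highest neutrophil score (5.16). Next in these scores, and kept, were CMA 3 (hair shaft, 6.57), CM0 2 (skeletal muscle, 9.51) and Ctrl 1 (neutrophil, 4.79). Differences of the 9 genes with an unadjusted p under 0.05 are given with and without Ctrl 3, Ctrl 4 and CM1 3.

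Per kb of exon, binding proteins made up most of the IGF transcripts, and the receptor and Igf2 stood at the low end. To compare genes, CPM were divided by the merged exon length in kilobases, so the order depends on these lengths. They ran from 1112 bases for Igfbp6 to 16791 for Igf1r. In CPM without this division, Igfbp5 averaged 499, Igf1 254, Igfbp7 233, Igfbp3 227 and Igfbp4 186. Below came Igf1r with 120, Igfbp6 with 79.6, Igfbp2 with 24 and Igf2 with 0.874 CPM. Orders in this and the next paragraph are per kb. Igfbp7, whose product binds IGFs weakly and lies in the matrix around vessels, was the highest of the 9 per kb in all 24 libraries. It had 193 ± 26.5 CPM per kb (163 to 255). Igfbp5, a matrix-bound carrier, stood at 83 ± 18.3 CPM per kb, above Igfbp3 in 16 of 24 libraries. Igfbp3, the main carrier of IGFs in blood, had 72.5 ± 20.8 CPM per kb, and Igfbp6, which prefers IGF2, had 71.6 ± 30.1. Igfbp3 was above Igfbp6 in 12 of 24 libraries, so the order of Igfbp3 and Igfbp6 lies within their spread.

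Below them came Igfbp4, an inhibitory carrier, with 42 ± 9.52 CPM per kb, Igf1 with 25.6 ± 4.01 and Igfbp2 with 13 ± 6.99. Per kb, Igf1 was above Igfbp2 in 22 of 24 libraries, and Igfbp2 was above Igf1r in 20 of 24. Igf1r stood at 7.15 ± 0.583 CPM per kb, close to 8.52 ± 0.639 for the related insulin receptor gene Insr. Igf2, the fetal growth ligand, was lowest in all 24 libraries, with 0.153 ± 0.0745 CPM per kb. Of the summed length-scaled levels of the 6 Igfbp genes, Igfbp7 held 41% ± 5.97, Igfbp5 17.4% ± 3.19, Igfbp3 15.3% ± 4.1, Igfbp6 14.7% ± 4.98, Igfbp4 8.81% ± 1.54 and Igfbp2 2.83% ± 1.72 (SD, n = 24).

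**Figure D1:**
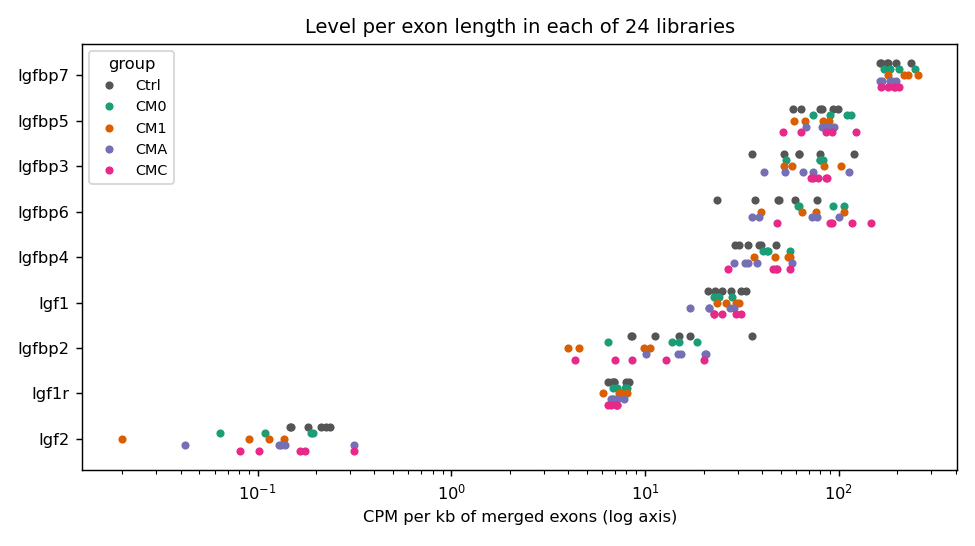
Level of the 9 IGF genes in CPM per kb of merged exon (log axis), 1 point per library coloured by group. Igfbp7 lies highest (163 to 255 CPM per kb), the points of Igfbp3 and Igfbp6 cover each other, and Igf2 lies lowest in every library.

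Igf1 stood far above Igf2 per kb of exon, by a median of 210 times (67.9 to 1310 over the 24 libraries). The Igf2 level has a limit of its own. Of its 5723 exon bases on GRCm38 (chromosome 7, 142650766 to 142666816, minus strand), 3596 are shared with the readthrough gene Gm49394 on the same strand, which is listed in the tables and had 0 counts in all 24 libraries. Reads that lie in shared bases of both genes may have been left out of the count, so the Igf2 level may be understated. With the shared bases taken out of its length, Igf2 stood at 0.411 ± 0.2 CPM per kb and Igf1 at a median of 78.2 times Igf2 (25.2 to 487). H19, the imprinted noncoding RNA that neighbours Igf2, had 175 ± 39.6 CPM per kb.

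The other genes lie at separate places on GRCm38, except for a pair of neighbours. Igf1 (ENSMUSG00000020053) spans chromosome 10, 87858265 to 87937042, and Igf1r (ENSMUSG00000005533) chromosome 7, 67952827 to 68233668, both on the plus strand. Igfbp2 (chromosome 1, 72824503 to 72852474, plus strand) and Igfbp5 (chromosome 1, 72857932 to 72874884, minus strand) face each other tail to tail across 5457 bases, with 0 coding genes between them. Igfbp3 lies on chromosome 11 (7206086 to 7213923, minus strand) and Igfbp4 on the same chromosome at 99041244 to 99054392, plus strand. Igfbp6 lies on chromosome 15 (102144362 to 102149511, plus strand). Igfbp7 (chromosome 5, 77349240 to 77408041, minus strand) shares 85 exon bases, 7.03% of its length, with Polr2b on the opposite strand, and since the libraries do not mark strand, reads there cannot be assigned to one of them. The neighbours Igfbp2 and Igfbp5 had a Pearson r of 0.33 (permutation p = 0.115, adjusted p = 0.414) and a Spearman rho of 0.35 (permutation p = 0.0937, adjusted p = 0.368) over the 24 libraries, and r was 0.43 without CM1 4 and Ctrl 3.

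The genes differed widely in how much they varied between mice. The coefficient of variation over the 24 libraries was 53.7% for Igfbp2, 48.8% for Igf2 and 42.1% for Igfbp6, higher than that of 96.2%, 94.8% and 91.1% of the 17736 genes of at least 1 CPM. For Igf2 it rests on 1 to 17 counts a library, where counting error is large. Igf1r varied least, with a coefficient of variation of 8.15%, and 12% of genes had a lower one. Igfbp3 (28.6%), Igfbp4 (22.7%) and Igfbp5 (22%) were above the median gene (17.6%), and Igf1 (15.7%) and Igfbp7 (13.7%) below it.

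**Figure D2:**
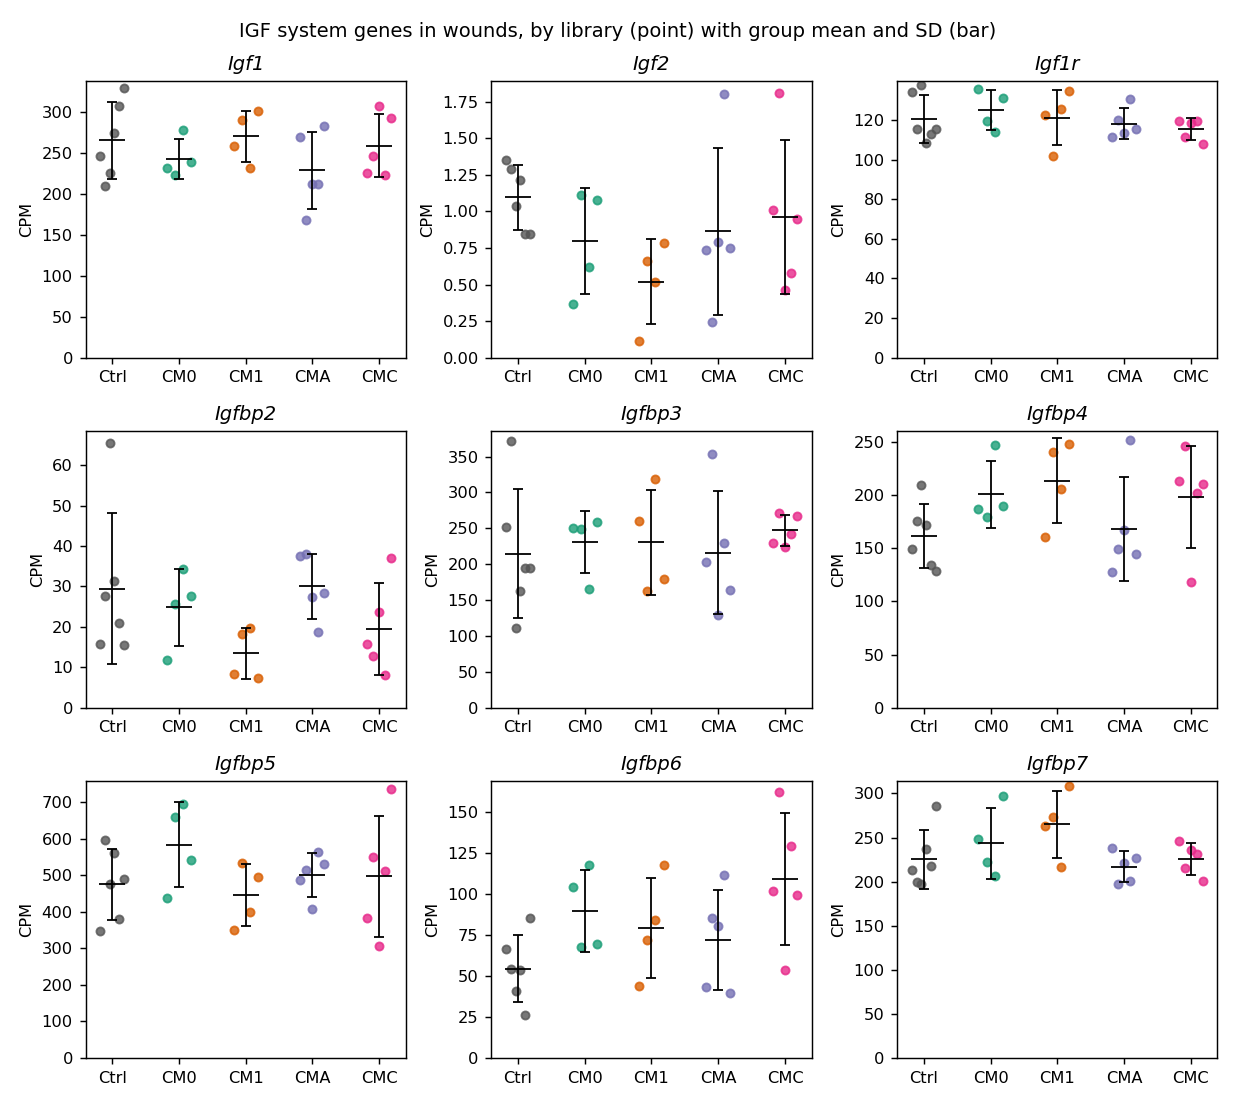
TMM-scaled CPM of each of the 9 genes, 1 panel per gene with its own axis, 1 point per library by group (Ctrl 6, CM0 4, CM1 4, CMA 5, CMC 5) with the group mean and SD. Groups overlap in nearly every panel. Igf2 lies under all controls in every CM1 library and in 4 of 5 CMA libraries. For Igfbp6, 4 of 5 CMC libraries lie above the highest control.

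No IGF gene passed the test for any difference among the 5 groups. edgeR's quasi-likelihood test with Benjamini-Hochberg adjustment called 0 of the 9 genes and 0 of 18978 genes in all (0%). At an unadjusted p under 0.05 it had 0 of the 9 and 882 of all genes (4.65%). Over all genes DESeq2 called 1 and limma with voom 0, neither of them one of the 9. The smallest unadjusted p of the 9 were 0.0671 for Igfbp6, 0.117 for Igfbp2 and 0.136 for Igfbp7, each with an adjusted p of 0.929 in edgeR, and the largest was 0.936 for Igfbp3. The p-values measure the spread between the mice of these groups. In tissue RNA, fewer cells of a type and less RNA per cell cannot be told apart.

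The ligand Igf1 overlapped between all bandages. The mean level was 266 ± 47 CPM for Ctrl, 243 ± 24.5 for CM0, 270 ± 31.5 for CM1, 229 ± 47 for CMA and 259 ± 39.1 for CMC wounds. The Ctrl wounds ran from 209 to 330.0 CPM with a median of 261, and the CMA wounds had 269.7, 168.6, 211.9, 211.9 and 283.2 CPM. Of the CMA libraries 1, CMA 2, lay below the lowest control and the others lay within the control range. The log2 fold change of CMA over Ctrl was -0.21 (SE 0.13, 95% interval -0.49 to 0.06, unadjusted p = 0.124, edgeR adjusted p = 0.778), and it was -0.12 without CMA 2 (unadjusted p = 0.364) and -0.30 without CMA 5 (unadjusted p = 0.0394, edgeR adjusted p = 0.486). Over the 4 media the 95% intervals for Igf1 against Ctrl ran from -0.49 to 0.32 on the log2 scale.

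Igf2 was at the edge of detection and lowest in CM1. Its counts were 1, 8, 5 and 7 in the CM1 wounds, or 0.114, 0.658, 0.519 and 0.784 CPM. The controls had 7 to 13 counts, with a lowest of 0.843, a median of 1.13 and a highest of 1.35 CPM. All 4 CM1 libraries lay below all 6 controls, which held for 123 of all genes tested (0.648%) and for none of the other 8 genes. The log2 fold change was -1.03 (SE 0.47, 95% interval -1.99 to -0.07, unadjusted p = 0.0366, edgeR adjusted p = 0.695). Without Ctrl 3, Ctrl 4 and CM1 3 it was -1.01 (unadjusted p = 0.1). In the other media Igf2 averaged 0.795 ± 0.363 (CM0), 0.864 ± 0.571 (CMA) and 0.962 ± 0.526 CPM (CMC). Below the lowest control lay 2 of 4 CM0, 4 of 5 CMA and 2 of 5 CMC libraries. Above the highest control lay 1 CMA and 1 CMC library. The skeletal muscle score was 7.99 ± 0.393 in CM1 and 8.67 ± 0.738 in Ctrl, and 9 of 9 tested muscle markers were lower in CM1 than in Ctrl (median log2 fold change -0.87). All 9 were also lower in CMA (median -0.75) and in CMC (median -0.48). Their part in the result was not tested.

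The receptor Igf1r was the steadiest of the 9. Group means were 121 ± 12.2 CPM (Ctrl), 125 ± 10 (CM0), 121 ± 13.8 (CM1), 118 ± 7.68 (CMA) and 116 ± 5.4 (CMC). The 95% intervals of the 4 log2 fold changes against Ctrl all lay between -0.22 and 0.22. Its mean level per kb was below that of all 6 binding proteins.

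Among the binding proteins Igfbp6 stood highest over Ctrl. It was counted in the controls at 26.2 to 85.5 CPM with a median of 54. The CMC wounds had 101.8, 162.1, 53.5, 129.4 and 99.8 CPM, so that 4 of 5 lay above the highest control and CMC 3 lay near the control median. The means were 109 ± 40.1 CPM in CMC and 54.5 ± 20.4 in Ctrl, which is 1 on the log2 scale (95% interval 0.33 to 1.67, SE 0.32). The unadjusted p was 0.00562 and the edgeR adjusted p 0.547. Of the 9 genes, Igfbp6 was the only one with an unadjusted p under 0.05 in CMC against Ctrl, where 8.55% of all genes had one, and the count was 2 without CMC 3 or without CMC 5. Without Ctrl 3, Ctrl 4 and CM1 3 the log2 fold change was 0.91 (unadjusted p = 0.0317, edgeR adjusted p = 1).

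Igfbp6 was also the gene of smallest p in CM0 against Ctrl. The CM0 wounds had 104.2, 67.9, 117.9 and 69.3 CPM, all above the control median and 2 of 4 above the highest control. The log2 fold change was 0.72 (SE 0.34, 95% interval 0.00494 to 1.43, unadjusted p = 0.0486, edgeR adjusted p = 0.946), or 0.62 without Ctrl 3, Ctrl 4 and CM1 3 (unadjusted p = 0.142), and 1 of the 9 genes against 4.92% of all genes had an unadjusted p under 0.05. That count was 0 when Ctrl 2, 3, 4 or 5, CM0 1 or 3, CM1 2 or 3, CMA 2 or 3, or CMC 1, 4 or 5 was left out. In CM1 the values were 44, 71.8, 84.2 and 117.5 CPM (log2 fold change 0.54, unadjusted p = 0.132), and in CMA they were 43, 85.7, 80.6, 111.4 and 39.4 CPM (0.40, unadjusted p = 0.237). Both groups overlapped the controls. The mean of the 4 media stood 0.66 above Ctrl on the log2 scale (SE 0.26, 95% interval 0.11 to 1.21, unadjusted p = 0.0202, edgeR adjusted p = 0.471), and again 1 of the 9 had an unadjusted p under 0.05, beside 9.42% of all genes, with 0 when Ctrl 5 was left out and 2 without CMA 4 or without CMC 3. Without Ctrl 3, Ctrl 4 and CM1 3 the mean of the media stood at 0.56 (unadjusted p = 0.107, edgeR adjusted p = 0.953). These comparisons share the 6 control libraries. The share of Igfbp6 in the summed length-scaled level of the 6 binding proteins was 11.1% ± 3.38 in Ctrl and 19.1% ± 5.31 in CMC.

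The fibroblast markers leaned the same way as Igfbp6. Control wounds had a fibroblast score of 9.16 ± 0.239 (8.89 to 9.55) and CMC wounds one of 9.46 ± 0.212 (9.15 to 9.72), with 9.42 ± 0.192 for CM0, 9.45 ± 0.255 for CM1 and 9.28 ± 0.243 for CMA. Of 10 fibroblast markers, 9 were higher in CMC than in Ctrl (median log2 fold change 0.20), beside 48.4% of all genes. In CMC 3 of the 10 had an unadjusted edgeR p under 0.05, beside 8.55% of all genes, and 0 were called. All 10 were higher in CM0 (median 0.25) and in CM1 (median 0.22), and 8 of 10 in CMA (median 0.115). Of all genes, 47.4% were higher in CM0, 48.7% in CM1 and 46.7% in CMA. The part of the fibroblast markers in the Igfbp6 result was not tested.

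Igfbp2, an IGF2-preferring carrier, was lowest in CM1. The CM1 wounds had 8.43, 18.2, 19.6 and 7.4 CPM, all below the control median of 24.2 and 2 of 4 below the lowest control of 15.6. The highest control was Ctrl 3 with 65.5 CPM, far above the next at 31.3. The log2 fold change was -1.12 (SE 0.45, 95% interval -2.06 to -0.18, unadjusted p = 0.0215, edgeR adjusted p = 0.695), and without Ctrl 3 it was -0.72 (unadjusted p = 0.0909, edgeR adjusted p = 0.852). The hair shaft score was 9.71 in Ctrl 3 and 6.23 in Ctrl 4, from -1 to 1.83 in the other 4 controls and from 0.986 to 2.56 in CM1, so the CM1 scores lay above 3 of the 6 controls and below Ctrl 3 and Ctrl 4. All 6 tested hair shaft markers were lower in CM1 than in Ctrl (median log2 fold change -5.14). Each had an unadjusted edgeR p under 0.05 in CM1, where 7.04% of all genes did, and 0 were called. All 6 were also lower than Ctrl in CMC (median -5.24), CM0 (median -3.04) and CMA (median -1.98). Over the 24 libraries Igfbp2 and the hair shaft score had a Pearson r of 0.41 (permutation p = 0.0492, adjusted p = 0.221). Without CMA 3 and Ctrl 3 r was 0.16. The part of hair shaft tissue in the Igfbp2 result in CM1 was not tested. Igfbp2 averaged 24.8 ± 9.45 CPM in CM0, 30 ± 8.04 in CMA and 19.5 ± 11.4 in CMC, against 29.4 ± 18.7 in Ctrl.

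Igfbp4 and Igfbp7 were higher in CM1 than in Ctrl by small steps within overlapping ranges. Igfbp4 had 160.7, 240.1, 205.5 and 247.6 CPM in CM1 and 128 to 209 CPM (median 160) in Ctrl, so all 4 lay above the control median and 2 above the highest control. Its log2 fold change was 0.40 (SE 0.19, 95% interval 0.00422 to 0.80, unadjusted p = 0.0478, edgeR adjusted p = 0.702). Igfbp7 had 263.4, 273.4, 216.1 and 308 CPM in CM1 and 197 to 286 CPM (median 215) in Ctrl. All 4 CM1 values of Igfbp7 lay above the control median, CM1 3 just so, and 1 lay above the highest control, CM1 4. Its log2 fold change was 0.24 (SE 0.11, 95% interval 0.00463 to 0.47, unadjusted p = 0.0459, edgeR adjusted p = 0.702).

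With Igf2, Igfbp2, Igfbp4 and Igfbp7, 4 of the 9 genes had an unadjusted p under 0.05 in CM1 against Ctrl, where 7.04% of all genes did and edgeR called 0% after adjustment. The count was 2 without Ctrl 3, Ctrl 4 and CM1 3, with Igfbp4 at 0.56 (unadjusted p = 0.0254), Igfbp7 at 0.30 (0.0273) and Igfbp2 at -0.79 (0.106). It ran from 1 to 4 when each library was left out in turn, and was 1 without Ctrl 1, CM1 1 or CM1 4 and 2 without Ctrl 2, Ctrl 3, Ctrl 4, Ctrl 5, CM0 1, CM0 2, CM1 2, CM1 3, CMA 3, CMA 5 or CMC 4. The endothelial markers stood alongside Igfbp7. All 10 were higher in CM1 than in Ctrl (median log2 fold change 0.29), beside 48.7% of all genes. The scores were 5.64 ± 0.215 in CM1 and 5.34 ± 0.37 in Ctrl. All 10 were also higher in CM0 (median 0.13), beside 47.4% of all genes, 7 in CMC (median 0.06) and 2 in CMA (median -0.19). The part of the endothelial markers in the Igfbp7 result was not tested.

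Igfbp3 and Igfbp5 overlapped between all bandages. Igfbp3 averaged 214 ± 89.9 CPM (Ctrl), 231 ± 43.7 (CM0), 230 ± 72.9 (CM1), 216 ± 85.9 (CMA) and 247 ± 21.5 (CMC). The 6 controls alone ran from 111 to 372 CPM, wider than the distance between any group means. Igfbp5 averaged 475 ± 97.2 CPM (Ctrl), 584 ± 116 (CM0), 446 ± 85 (CM1), 501 ± 59.2 (CMA) and 498 ± 166 (CMC), and its highest value was 736 CPM in CMC 5.

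As a set, the 9 genes did not lean one way against Ctrl. Higher than Ctrl were 6 of 9 in CM0 and also in CM1, and 5 of 9 in CMA and also in CMC, while 47.4%, 48.7%, 46.7% and 48.4% of all genes were higher. Their median log2 fold changes were 0.11, 0.03, 0.01 and 0.00, beside a median of -0.01 over all genes in each. By role, both ligands were lower in CM0, CMA and CMC, and 5 of the 6 binding proteins were higher in each of those media. In CM1 1 ligand was higher and 1 lower, and 4 of the 6 binding proteins were higher. Called were 0 of 9 in each comparison, as were 0% of all genes by edgeR, and DESeq2 and limma with voom also called 0 of the 9. In CMA 0 of the 9 had an unadjusted p under 0.05, beside 6.61% of all genes.

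**Figure D3:**
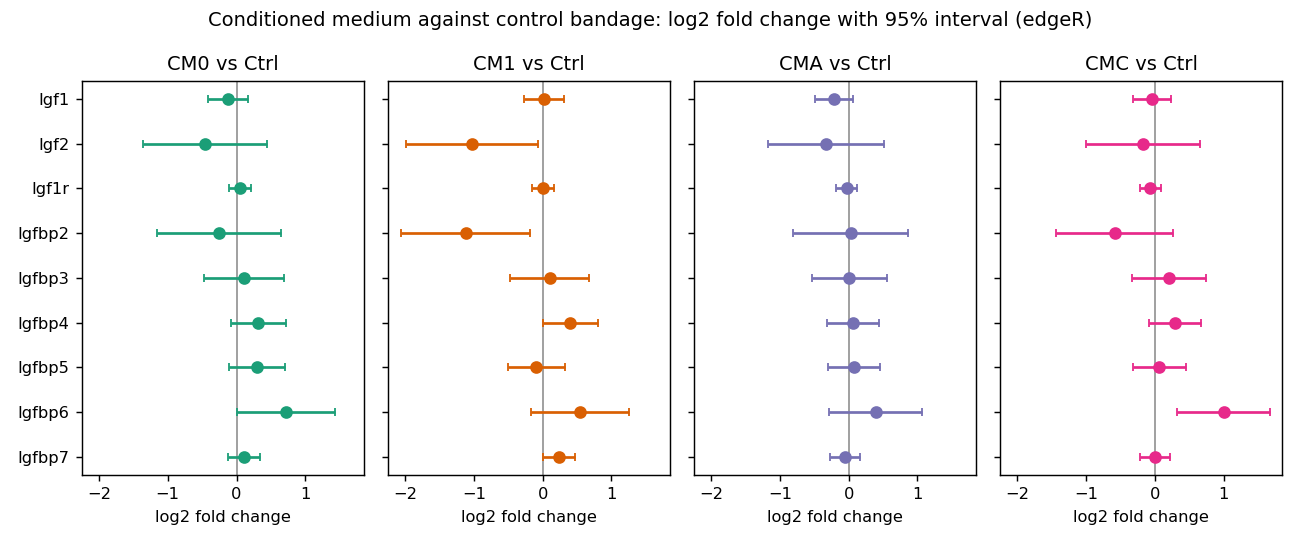
Log2 fold change of each of the 9 genes in CM0, CM1, CMA and CMC over the 6 shared controls, points with 95% intervals from edgeR. The intervals of Igfbp6 in CMC (0.33 to 1.67) and of Igfbp2 in CM1 (-2.06 to -0.18) lie farthest from 0, the intervals of Igf1r are the narrowest, and no gene passed after adjustment over all genes.

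Between the media, 0 of the 9 genes were called in the 6 comparisons, as were 0% of all genes in each. CM1 against CMA had 2 of the 9 with an unadjusted p under 0.05, beside 4% of all genes, and the count was 0 without CM1 4. Igfbp2 was at -1.15 (SE 0.47, unadjusted p = 0.0222, edgeR adjusted p = 0.995), with 37.6, 38, 27.4, 18.8 and 28.3 CPM in CMA, so 3 of the 4 CM1 wounds lay below the lowest CMA wound. Igfbp7 was at 0.29 (SE 0.12, unadjusted p = 0.0208, edgeR adjusted p = 0.995), with 198 to 238 CPM in CMA and 3 of the 4 CM1 wounds above them. Without Ctrl 3, Ctrl 4 and CM1 3 these were -1.38 (unadjusted p = 0.00689) and 0.38 (unadjusted p = 0.0047), each with an edgeR adjusted p of 0.812.

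In the other comparisons between media 0 of the 9 had an unadjusted p under 0.05, beside 2.22% of all genes in CM1 against CM0, 3.14% in CMA against CM0, 3.72% in CMC against CM0, 2.71% in CM1 against CMC and 6.16% in CMA against CMC. The gene of smallest p was Igfbp2 in CM1 against CM0 (log2 fold change -0.87, unadjusted p = 0.085, and -1.10 with 0.0289 without Ctrl 3, Ctrl 4 and CM1 3) and Igfbp6 in CMA against CMC (-0.60, unadjusted p = 0.0898). Igfbp7 had the smallest p in CM1 against CMC (0.23, unadjusted p = 0.0591, and 0.32 with 0.0144 without the same 3) and in CMA against CM0 (-0.16, unadjusted p = 0.171, and -0.05 without CM0 4). It was Igf1r in CMC against CM0, at -0.12 (unadjusted p = 0.172, and -0.07 without CM0 1).

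Of the 9 IGF genes, 6 were related to a cell type score across the wounds. Log2 CPM of the 9 genes were correlated with each other (36 relations) and with 11 cell type scores (99 relations) over the 24 libraries, with two-sided permutation p of 100000 resamples adjusted by Benjamini-Hochberg within each family. By Pearson's r, 1 relation of the first family and 6 of the other had an adjusted p under 0.05. The libraries share tissue composition and include all 5 groups, so r is also given with the group means subtracted.

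Igfbp6 tracked the fibroblast score most closely of all 99. Its r was 0.88 (permutation p = 1e-05, the smallest that the resamples give, adjusted p = 0.000495) and its rho 0.88 (permutation p = 1e-05, adjusted p = 0.000495). Without CM1 4 and Ctrl 5, the libraries farthest from the median score, r was 0.86, and with group means subtracted it was also 0.86. By single markers, 9 of 10 had r above 0, led by the matrix genes Dpt (0.87) and Dcn (0.86), and the mural and fibroblast marker Pdgfrb stood at -0.20. Igfbp4 was also related to the fibroblast score, with r of 0.61 (permutation p = 0.00151, adjusted p = 0.0279) and rho of 0.63 (permutation p = 0.00125, adjusted p = 0.0309). Its r was 0.51 without CM1 4 and Ctrl 5 and 0.50 with group means subtracted (adjusted p = 0.206), with 7 of 10 single markers above 0 and a median of 0.42. They ran from -0.31 for Pdgfrb to 0.72 for Pi16, a gene of adventitial fibroblasts.

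Igfbp4 and Igfbp6 were the only pair of the 9 genes that passed. Their r was 0.65 (permutation p = 0.00056, adjusted p = 0.0202) and rho 0.68 (permutation p = 0.00033, adjusted p = 0.0119). Without CMA 1 and CMC 3 r was 0.62, and with group means subtracted it was also 0.62, with an adjusted p of 0.101. With group means subtracted this pair was not the closest, since Igf2 and Igfbp4 stood at 0.63 (0.30 before). CMC 3, the CMC wound with Igfbp6 near the control median, was also the CMC wound of lowest Igfbp4 (118 CPM) and lowest fibroblast score (9.15).

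The RefSeq promoter windows of this pair, the 250 bases before each annotated start on GRCm38.p6, are shown because these genes varied together across wounds. Both are read 5′ to 3′ on the plus strand, Igfbp4 at chr11:99040994-99041243 and Igfbp6 at chr15:102143936-102144185. Capitals mark the TATA box (TATAAA) and the CCAAT box (CCAAT), searched on both strands, so TTTATA is a TATA box on the minus strand.
Igfbp4: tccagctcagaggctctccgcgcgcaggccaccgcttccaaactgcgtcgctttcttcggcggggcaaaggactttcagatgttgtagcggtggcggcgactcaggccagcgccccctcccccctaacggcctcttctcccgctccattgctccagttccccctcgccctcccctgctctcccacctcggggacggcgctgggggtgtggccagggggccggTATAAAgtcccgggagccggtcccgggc
Igfbp6: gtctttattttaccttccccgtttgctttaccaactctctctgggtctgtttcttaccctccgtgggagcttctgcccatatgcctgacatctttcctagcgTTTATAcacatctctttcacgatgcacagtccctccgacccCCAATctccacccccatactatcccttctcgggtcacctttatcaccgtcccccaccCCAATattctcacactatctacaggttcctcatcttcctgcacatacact
The Igfbp4 window held 1 TATA box close to its start and had a GC content of 69.2%. The Igfbp6 window held 1 TATA box on the minus strand and 2 CCAAT boxes, with a GC content of 49.6%. The gene span given above starts at 99041244 for Igfbp4, next to its window. For Igfbp6 it starts at 102144362, so its window, which ends at 102144185, does not reach that start. The GC box (GGGCGG) was found in neither. Of 32851 windows of this length, 12.4% held TATAAA, 33.8% CCAAT and 32.7% GGGCGG on either strand. The window of Igfbp7 held 4 GC boxes and 0 TATA or CCAAT boxes. These are matches of letters and were not tested as binding sites.

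Igfbp7 tracked the endothelium. Its r with the endothelial score was 0.80 (permutation p = 1e-05, the smallest that the resamples give, adjusted p = 0.000495) and rho 0.82 (permutation p = 1e-05, adjusted p = 0.000495). It was 0.76 without CM1 4 and Ctrl 3 and 0.75 with group means subtracted. All 10 endothelial markers had r above 0, led by Pecam1 (0.85) and the VEGF receptor gene Flt1 (0.83). Igfbp2 ran against the endothelial score, with r of -0.60 (permutation p = 0.00169, adjusted p = 0.0279) and rho of -0.53 (permutation p = 0.00773, adjusted p = 0.102). That relation rests in part on CM1 4 and Ctrl 3, the highest and lowest endothelial scores, since without them r was -0.38. With group means subtracted it was -0.50 (adjusted p = 0.206).

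**Figure D4:**
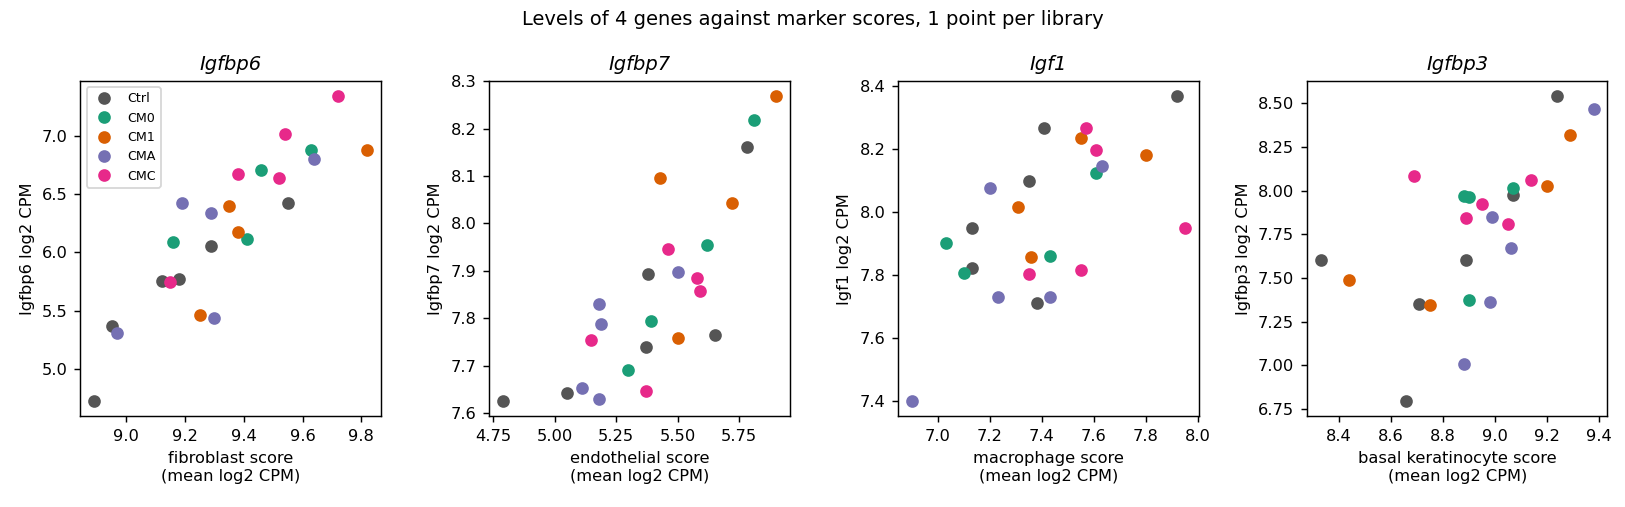
Log2 CPM of an IGF gene against a cell type score (mean log2 CPM of the markers), 1 point per library coloured by group, in 4 panels for relations that passed over the 24 libraries. Igfbp6 lies along the fibroblast score (r 0.88) and Igfbp7 along the endothelial score (r 0.80), and the lower left point of the Igf1 panel is CMA 2.

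Igf1 followed the macrophages. Its r with the macrophage score was 0.63 (permutation p = 0.00103, adjusted p = 0.0255) and rho 0.57 (permutation p = 0.00447, adjusted p = 0.0738). It was 0.65 without CMC 2 and Ctrl 6 and 0.62 with group means subtracted (adjusted p = 0.0709). All 10 markers had r above 0, from 0.11 for the scavenger receptor gene Cd163 to 0.79 for the Fc receptor gene Fcgr1. CMA 2, the wound of lowest Igf1, also had the lowest macrophage score (6.9).

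Igfbp3 followed the basal keratinocytes. Its r with that score was 0.63 (permutation p = 0.00082, adjusted p = 0.0255) and rho 0.68 (permutation p = 0.00043, adjusted p = 0.0142). It was 0.72 without CM1 4 and Ctrl 6 and 0.68 with group means subtracted (adjusted p = 0.0709). All 7 markers had r above 0, but with a median of 0.23 they were uneven. Krt15, a keratin of quiescent basal and hair follicle stem cells, stood at 0.86, the hemidesmosome gene Col17a1 at 0.67 and Krt14 at 0.03.

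Without Ctrl 3, Ctrl 4 and CM1 3, 3 of the 6 relations to cell types kept an adjusted p under 0.05: Igfbp6 and Igfbp4 with fibroblasts (r 0.87 and 0.72) and Igfbp7 with endothelium (r 0.82). Igf1 with macrophages stood at 0.63 (adjusted p = 0.052), Igfbp3 with basal keratinocytes at 0.55 (adjusted p = 0.108) and Igfbp2 with endothelium at -0.49 (adjusted p = 0.158). For Igfbp5 the largest r was with skeletal muscle, 0.55 (permutation p = 0.00535, adjusted p = 0.0757), with rho of 0.57 (permutation p = 0.0044, adjusted p = 0.0738), and r of 0.50 without CM0 2 and Ctrl 4. Igf2 and Igf1r passed with 0 of the 11 scores.

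**Figure D5:**
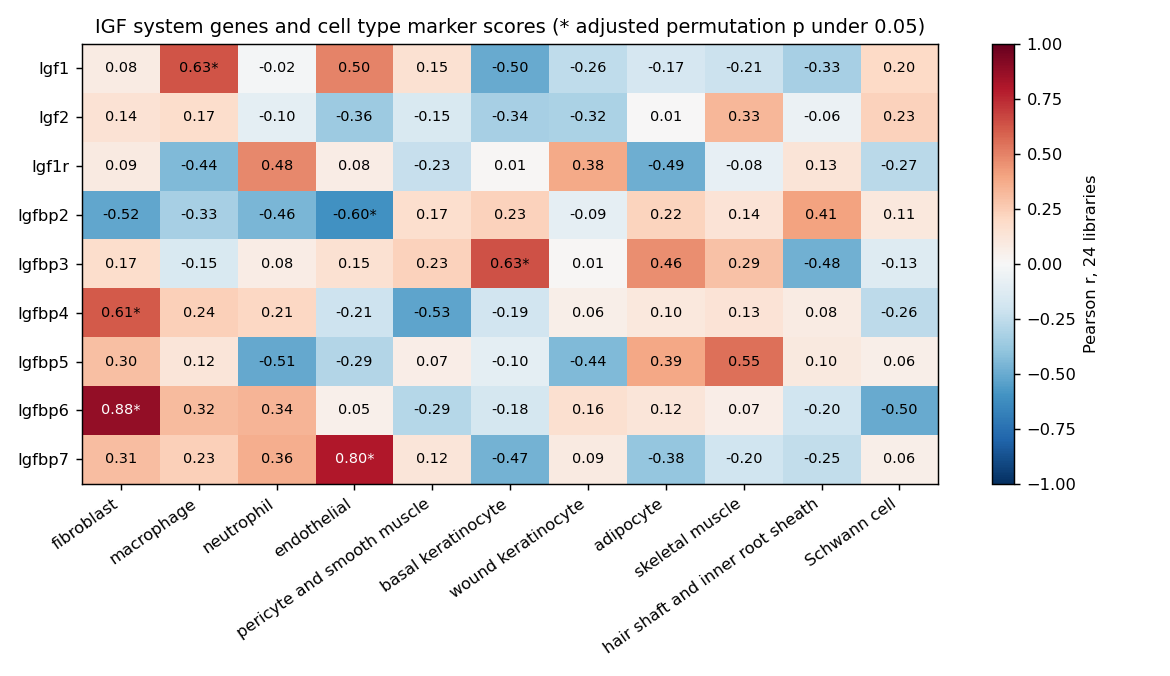
Pearson r over 24 libraries between log2 CPM of each of the 9 IGF genes (rows) and each of 11 cell type scores (columns), coloured from negative to positive, with marks on the 6 relations of adjusted p under 0.05. The strongest cells are Igfbp6 with fibroblasts (0.88) and Igfbp7 with endothelium (0.80), and Igfbp2 with endothelium is the marked negative one (-0.60).

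Among 17736 genes of at least 1 CPM, the 3 most like each IGF gene by r of log2 CPM over the 24 libraries were looked up as a description, without a test. For Igf1 they were Ms4a7 (0.86), a gene of monocytes and macrophages, Tgfb1 (0.84), which encodes the cytokine TGF-beta 1, and Rap2b (0.83). For Igfbp6 they were Cd34 (0.94), a surface marker of stromal progenitors and endothelium, Clec3b (0.94), which encodes tetranectin, and Dpp4 (0.93), a surface peptidase of upper dermal and fascial fibroblasts. Igfbp4 was nearest to Bmp3 (0.81), Efhd1 (0.81) and Pcsk6 (0.78). For Igfbp7 they were the endothelial genes Plvap (0.89), Pecam1 (0.85) and Flt1 (0.83), of which Pecam1 and Flt1 are on the endothelial list.

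The genes most like Igfbp6 stood the same way as it in CMC. Cd34 had 282 ± 91.8 CPM in CMC and 170 ± 45.3 in Ctrl (log2 fold change 0.73, unadjusted p = 0.0196, edgeR adjusted p = 0.553). Dpp4 had 83.6 ± 30.2 and 45.7 ± 15.7 CPM (0.87, unadjusted p = 0.0178, edgeR adjusted p = 0.547), and Clec3b 140 ± 46.5 and 94.1 ± 33.6 CPM (0.58, unadjusted p = 0.0722, edgeR adjusted p = 0.618). None passed the adjusted test, and being chosen for their likeness to Igfbp6 they are not independent of it.

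For Igfbp3 the nearest genes were Dst (0.88), which links keratins to hemidesmosomes, Krt15 (0.86) and the transcription factor gene Hlf (0.86). For Igfbp2 they were Megf6 (0.80), the Wnt regulator gene Nkd2 (0.78) and Lgr5 (0.77), a receptor gene of hair follicle stem cells. Igfbp5 was nearest to Mpi (0.81), the transcription factor gene Zfp423 (0.76) and Bin1 (0.74). Igf2 was nearest to Actc1 (0.70), an actin of heart and fetal muscle, Slc4a3 (0.69) and Tnni1 (0.68), a slow muscle troponin, at weaker r and from few counts. Igf1r was nearest to Gstcd (0.78), Scd2 (0.78) and Nmnat2 (0.73). In CM1 against Ctrl, Actc1 stood at -1.36 (unadjusted p = 0.035), and Lgr5 and Nkd2 at -0.83 and -0.88 (unadjusted p of 0.00769 and 0.00806), each with an edgeR adjusted p of 0.695. The others near Igf2 and Igfbp2 stood closer to 0, with Slc4a3 at -0.14 (unadjusted p = 0.296), Tnni1 at -0.52 (0.283) and Megf6 at -0.23 (0.373). These genes too were chosen for their likeness and are not independent of Igf2 and Igfbp2.

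Other genes of the IGF system, taken by role, gave 0 calls as well. Of 7 other carriers and receptors 4 were tested, and 0 had an unadjusted p under 0.05 for any difference. Igfbp1, the hepatic carrier, had 2 counts in all 24 libraries together, Igfbpl1 had 1 and Insrr 26, too few to test. The clearing receptor gene Igf2r had 489 ± 71 CPM over all libraries (52.5 CPM per kb, against 7.15 for Igf1r) and an unadjusted p of 0.344, and Igfals, which encodes the acid-labile subunit, had 2.48 to 10.9 CPM and an unadjusted p of 0.537.

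A list drawn up for proteases that cut IGF binding proteins and their inhibitors held 9 genes, the ADAMTS-like gene Adamtsl1 among them. For any difference 1 of the 9 had an unadjusted edgeR p under 0.05, beside 4.65% of all genes. It was the secreted serine protease gene Htra1 (unadjusted p = 0.0395, edgeR adjusted p = 0.929), at 196 ± 10.5 CPM (Ctrl), 221 ± 10.4 (CM0), 200 ± 30.2 (CM1), 225 ± 21.4 (CMA) and 225 ± 13.6 (CMC). In CMC against Ctrl it stood at 0.20 on the log2 scale (SE 0.08, unadjusted p = 0.0149, edgeR adjusted p = 0.547). The gelatinase gene Mmp2 came next (unadjusted p = 0.182), with 1180 ± 367 CPM in CM1 and 844 ± 194 in Ctrl. Of the 9, the number higher than Ctrl was 4 for CM0, 6 for CM1, 5 for CMA and 6 for CMC.

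Of 20 genes of signal transduction below the receptor, 14 were higher than Ctrl in CM0, 15 in CMC and 12 in each of CM1 and CMA. Of all genes, 47.4% were higher in CM0, 48.4% in CMC, 48.7% in CM1 and 46.7% in CMA. The median log2 fold changes of the 20 were small, at 0.05 in CM0, 0.03 in CMC, 0.06 in CM1 and 0.04 in CMA. For any difference 1 of the 20 had an unadjusted p under 0.05 and 0 were called. The receptor adaptor gene Grb10 (unadjusted p = 0.0796) had 230 ± 35.1 CPM in Ctrl, 281 ± 25 in CM0 and 281 ± 55.5 in CM1. Of the imprinted partners and regulators 9 of 10 were tested, 0 with an unadjusted p under 0.05. Nearest were Plagl1 (0.0531), a zinc finger gene that activates imprinted genes, with 112 ± 40.3 CPM in CM1 and 80.4 ± 10.4 in Ctrl and its highest value, 168 CPM, in CM1 4, and the RNA-binding protein gene Igf2bp3 (0.142). H19 averaged 432 ± 97.3 CPM and ran from 216 CPM in CMA 2 to 628 CPM in CM1 4.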

How the data were processed

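The authors deposited raw counts per gene, with 24 tables of 54232 genes, 1 per library. Per the labels' protocols, total RNA was isolated with miRNeasy, ribosomal RNA removed with Ribo-Zero and libraries made with NEBNext Ultra, which does not mark strand. The submitters' processing notes name bcl2fastq 2.17, FastQC, cutadapt, STAR, featureCounts, DESeq2 and GRCm38; an annotation release was not given in the sources used here. Library totals of 7267879 to 11985292 counts set the precision, and 0 pairs of libraries were identical.

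Symbols and positions were taken from GENCODE M21, which gave a symbol for 54165 genes. Genes were filtered with filterByExpr and fitted in 1 edgeR quasi-likelihood model of 5 groups with TMM scaling and robust dispersion; calls used a Benjamini-Hochberg adjusted p under 0.05 over 18978 genes. The log2 CPM used a prior count of 2. Promoter windows came from a RefSeq table. Versions were R 4.3.3, edgeR 4.0.16, limma 3.58.1 and DESeq2 1.42.0, and the fit was tested on simulated data. The 9 genes and all lists were chosen with earlier results of these data known. Named were all 9 genes, in each comparison those with an unadjusted p under 0.05 or else the smallest, 2 genes of smallest p per pathway list (1 is not reported here), the 3 most alike by r, and the cell type markers. Mean marker lists of 11 cell types gave the scores. Alternatives were other size factors, no filter, DESeq2, limma with voom and quality weights, only the groups compared, another prior count, group means subtracted, and leaving out libraries.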

Additional observations from a re-analysis of the deposited data

Results flagged for a closer look

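Each of the 9 genes was examined in each of the 5 groups for a library far from the rest of its group, 45 groups in all, by the gap to the nearest library as a share of the group's range. Chance marks about 1 in 20 such groups, and 3 were marked. In Ctrl 3, Igfbp2 stood at 65.5 CPM, with the next control at 31.3 (share 0.684, limit 0.625). In CM0 3, Igfbp3 stood lowest at 166 CPM, with the next at 249 (share 0.893, limit 0.829), and Igfbp4 stood highest at 247 CPM, with the next at 189 (share 0.847, limit 0.829).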

How the results depend on the processing

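Under every alternative run, 0 of the 9 IGF genes were called in any comparison. Direction was followed only for the log2 fold changes of the genes named in each comparison and for the relations that passed. Of these, 0 changed direction, and the other log2 fold changes of the 9 genes, some close to 0, were not followed. DESeq2 called 1 gene for any difference (Fibin), 1 in CM0 (Vgll3), 1 in CM1 (Fibin) and 1 in CMC (Cebpd) against Ctrl and 12 for the mean of the media, where edgeR called 0. With each library left out in turn, edgeR called 0 to 1 gene in CM0 against Ctrl (1 without CM0 2) and 0 to 5 for the mean of the media (5 without Ctrl 2). Relations called among the 9 genes were 0 with group means subtracted (1 before). Relations to cell types were 2 with group means subtracted and 3 without Ctrl 3, Ctrl 4 and CM1 3 (6 before); the cause was not tested. For Igfbp6 the log2 fold change in CMC ran from 0.81 to 1.17 and in CM0 from 0.56 to 0.89 with each library left out, and for Igf2 in CM1 from -1.26 to -0.74. Igfbp4 in CM1 ran from 0.33 to 0.51 and Igfbp7 from 0.16 to 0.33. The lowest edgeR adjusted p of these was 0.293. Genes of the 9 with an unadjusted p under 0.05 for any difference numbered 2 by DESeq2 and 1 by limma with voom, and up to 2 with a library left out (2 without Ctrl 6 or CMA 4, 1 without CM1 1, CM1 3, CMC 3 or CMC 5). Where that count was 0 between groups, it was 1 in CMA against Ctrl without CMA 5, 2 in CM1 against CM0 without CM0 1 (1 without CM1 2), 1 in CMA against CM0 without CMA 4, 1 in CMC against CM0 without CMC 5, 1 in CM1 against CMC without Ctrl 6, CM0 4, CM1 3, CMC 1 or CMC 3, and 2 in CMA against CMC without CMA 4 or CMC 3 (1 without CMC 5). No paired analysis was possible because the replicate numbers follow accession order and pair no libraries across groups. Counts of 1 to 17 a library limit Igf2.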
